A study of Homo sapiens with 6 samples.

Results

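Transcripts of 10 amino acid transporters of the plasma membrane, SLC3A2, SLC7A5, SLC7A8, SLC7A11, SLC7A1, SLC1A4, SLC1A5, SLC38A1, SLC38A2 and SLC6A9, were followed in RNA sequencing of MDA-MB-468, an established human basal-like, triple-negative breast cancer cell line. They were chosen by name, with earlier results of these data known, and made up 10 of the 31122 genes in the deposited count table. The study compared 3 populations labelled GPR52 KO (titles 11, 12 and OG), described as made with CRISPR-Cas9 and a single guide RNA against the orphan receptor GPR52, with 3 cultures of the unedited parental line (titles W1, W2 and W3) grown in wells of 1 plate. No treatment or time point is given for either group, and nothing in them tells if 11, 12 and OG are single clones or how they are related. The submitters state that indels were found in the KO lines by Sanger sequencing. GPR52 itself had 645, 694 and 724 counts in the libraries labelled KO, against 9, 1 and 0 counts in the parental libraries, so the transcript of the targeted gene was higher under the KO label. That goes against the label, so 11, 12 and OG are named KO-labelled below. Whether the labels of the groups were exchanged, or whether the KO lines carry the transcript from another source, was not tested; with exchanged labels every direction given here would be turned round. A direction such as higher or lower compares them with W1, W2 and W3.

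Many amino acid transporters work as exchangers or as sodium-driven importers. SLC3A2 encodes the CD98 heavy chain, which brings light chains such as SLC7A5, SLC7A8 and SLC7A11 to the cell surface through a disulfide bond; the light chain is the part that moves the amino acid. Cancer cells are known to rely on such carriers for leucine, glutamine, serine, arginine and cystine, and several of the genes are targets of the stress-induced transcription factor ATF4, which binds composite C/EBP-ATF response elements when amino acids are short.

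Libraries held 25637794 to 31692454 counts, and 1 count was worth from 0.0321 CPM in W3 to 0.0397 CPM in W2. CPM is the count after division by the scaled library size. Of all genes, 17420 had enough counts to be tested. All 5 epithelial markers (EPCAM, KRT8, KRT18, KRT19 and CDH1) and all 4 basal markers (EGFR, KRT5, KRT17 and FOXC1) were detected. Their summed levels were 4352 to 5083 CPM and 6209 to 9872 CPM in KO-labelled libraries, against 5139 to 5657 CPM and 6207 to 6515 CPM in parental libraries. The sums hide changes of single markers. At an edgeR adjusted p under 0.05, EPCAM, KRT5 and FOXC1 were higher in KO-labelled libraries and KRT18 and CDH1 lower. KRT8, KRT19, EGFR and KRT17 did not pass. Leukocyte markers summed to at most 0.141 CPM in KO-labelled and 0.330 CPM in parental libraries. Of these, CD68 had at most 2 counts in any library. In the authors' FPKM values, levels per transcript length, CD68 had 2.77, 9.25 and 8.49 in KO-labelled 11, 12 and OG. In W1, W2 and W3 it had 3.79, 4.52 and 4.08 FPKM. Why counts and FPKM differ for CD68 was not tested. Endothelial markers summed to 0.750 to 1.39 CPM in KO-labelled and 1.62 to 1.75 CPM in parental libraries. ESR1, ERBB2 and PGR were listed as receptor genes low or absent in triple-negative cells. ESR1, the oestrogen receptor gene, averaged 2.79 CPM in KO-labelled and 9.38 CPM in parental libraries. ERBB2 averaged 114 CPM in KO-labelled and 123 CPM in parental libraries, and PGR was not in the count table. Of 4 fibroblast markers 3 were read, nearly all counts being of COL1A1, while LUM had 0 counts in KO-labelled and 2 in parental libraries; the list summed to 23.4 to 27.9 CPM in KO-labelled and 6.48 to 8.42 CPM in parental libraries, and its part in the results was not tested. No pair of libraries within a group agreed within sampling noise. Chi-square per gene was 3.08 to 5.81 for parental pairs. For KO-labelled pairs it was higher, 14.18 for 11 and 12, 38.71 for 12 and OG and 42.58 for 11 and OG. Errors after ± are SDs (n = 3 per group). P-values measure only the spread between these libraries, which may be technical.

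Promoter sequence was available from RefSeq (GRCh38.p14) for 9 of the 10 genes, as windows from 250 bases before to 50 bases after each annotated start, 18 windows in all. SLC7A11 has no entry there. The 5 windows below are shown because they hold the core of the C/EBP-ATF response element, TGATGNAAN, searched on both strands; the capitals mark the match. The first 3 belong to genes whose transcripts rose in KO-labelled libraries, and the last 2 to genes that did not pass the test.
SLC3A2, chr11:62881449-62881748, plus strand: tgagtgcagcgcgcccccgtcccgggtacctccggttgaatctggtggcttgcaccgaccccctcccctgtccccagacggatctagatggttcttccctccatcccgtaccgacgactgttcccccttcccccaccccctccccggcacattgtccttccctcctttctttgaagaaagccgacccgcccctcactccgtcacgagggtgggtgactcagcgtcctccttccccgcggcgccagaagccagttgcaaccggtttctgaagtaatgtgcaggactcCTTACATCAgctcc
SLC7A1, chr13:29595639-29595938, minus strand: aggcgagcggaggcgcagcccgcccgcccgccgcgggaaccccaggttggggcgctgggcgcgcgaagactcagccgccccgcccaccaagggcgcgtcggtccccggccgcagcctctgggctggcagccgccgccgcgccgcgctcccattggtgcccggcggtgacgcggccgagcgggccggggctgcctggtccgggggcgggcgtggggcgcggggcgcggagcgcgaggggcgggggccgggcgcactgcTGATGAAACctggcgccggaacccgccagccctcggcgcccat
SLC1A4, chr2:64989149-64989448, plus strand: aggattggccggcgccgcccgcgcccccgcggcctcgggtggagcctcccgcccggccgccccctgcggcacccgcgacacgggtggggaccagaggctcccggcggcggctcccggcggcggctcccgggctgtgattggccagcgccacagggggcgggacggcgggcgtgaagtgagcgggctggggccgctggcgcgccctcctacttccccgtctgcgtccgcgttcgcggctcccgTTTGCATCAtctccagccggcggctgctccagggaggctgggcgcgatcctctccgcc
SLC1A5, chr19:46784765-46785064, minus strand: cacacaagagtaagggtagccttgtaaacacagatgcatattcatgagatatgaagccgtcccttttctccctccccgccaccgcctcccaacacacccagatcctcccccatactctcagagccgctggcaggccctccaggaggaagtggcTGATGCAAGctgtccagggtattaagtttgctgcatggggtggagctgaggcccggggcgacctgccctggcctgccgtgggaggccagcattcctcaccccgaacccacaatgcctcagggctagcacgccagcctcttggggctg
SLC38A1, chr12:46266467-46266766, minus strand: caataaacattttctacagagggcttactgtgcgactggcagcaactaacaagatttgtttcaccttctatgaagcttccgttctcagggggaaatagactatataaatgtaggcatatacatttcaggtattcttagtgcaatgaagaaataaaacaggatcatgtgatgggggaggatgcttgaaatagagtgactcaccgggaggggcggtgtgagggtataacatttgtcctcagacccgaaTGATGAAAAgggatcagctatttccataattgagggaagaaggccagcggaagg

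The SLC3A2 and SLC1A4 matches lie on the strand opposite to the gene and read TGATGTAAG and TGATGCAAA in the motif's direction. The match sits 37 to 45 bases after the annotated start in SLC3A2, 8 to 16 bases after it in SLC7A1, across the start, from -8 to 1, in SLC1A4 and at positions -97 to -89 in SLC1A5. In SLC38A1 the match, TGATGAAAA, lies across the annotated start, from -4 to 5. Window direction was checked against GENCODE transcripts of each gene. The SLC38A1 window matched in neither direction, while the other windows shown matched forward. In all, 5 of the 9 genes with an entry (5 of 18 windows) held the core, which was present in 4.45% of all genes and 3.61% of all windows of the table. The antioxidant response element core TGACNNNGC was found for 4 of the 9 genes (SLC7A5, SLC7A1, SLC3A2 and SLC1A5), against 16.1% of all genes. The E-box CACGTG was found for 3 of the 9 (SLC7A5, SLC7A8 and SLC1A5), against 8.77% of all genes. Genes with more windows have more chances of a match, and counts per gene do not say which start was used in these cells.

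Of the 10 transporters, 5 rose in KO-labelled libraries, 0 fell and 5 did not pass the test (edgeR quasi-likelihood test, adjusted p under 0.05). The CD98 heavy chain SLC3A2, its cystine light chain SLC7A11 and its neutral amino acid light chain SLC7A8 were among the 5 that rose, together with the arginine and lysine carrier SLC7A1 and the alanine, serine and cysteine carrier SLC1A4. The glutamine carriers SLC1A5, SLC38A1 and SLC38A2, the leucine carrier SLC7A5 and the glycine carrier SLC6A9 were not called. SLC7A8 passed the filter on low counts only through the KO-labelled group, where it is higher, so its call adds no separate support. With a minimum of 10 CPM in 3 samples SLC7A8 was not tested, and 4 of 9 transporters were called. Of all tested genes 40.8% were called, 21.0% higher and 19.8% lower, so 5 called of 10 is near that background, and the 5 called higher stand beside 21.0%. In limma on log2(FPKM + 1) the number called was again 5, beside 35.9% of the genes tested there. In log2 CPM the groups did not overlap for 6 of the 10 genes, all higher in KO-labelled libraries. Of all tested genes 54.4% did not overlap in either direction and 27.4% were higher without overlap. In FPKM SLC38A1 also did not overlap, at 52.9 to 54.2 FPKM in KO-labelled and 46.4 to 52.3 FPKM in parental libraries. The median log2 fold change of the 10 genes was 0.57, against 0.01 over all tested genes, and it was 0.35 without the library OG. With the minimum of 10 CPM, and so without SLC7A8, the median was 0.53.

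**Figure D1:**
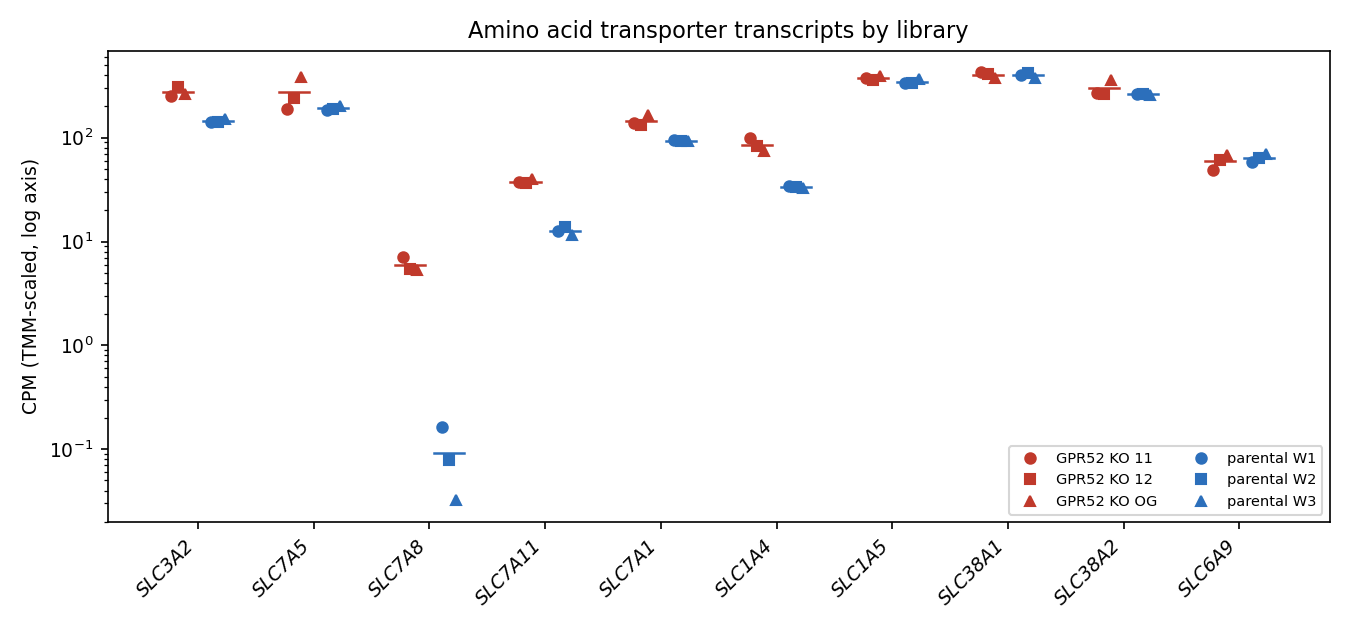
CPM of each transporter in each library on a log axis, with KO-labelled libraries in red to the left of parental libraries in blue; horizontal lines are group means (n = 3). SLC7A8 separates by 5.28 to 7.16 CPM in KO-labelled libraries against 0.0321 to 0.165 CPM in parental ones, while SLC7A5, SLC1A5, SLC38A1 and SLC6A9 overlap.

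SLC3A2, the heavy chain shared by the light chains, was measured at 254, 309.7 and 263 CPM in KO-labelled 11, 12 and OG, against 141, 142 and 153 CPM in parental W1, W2 and W3. Every KO-labelled library lay above every parental one. The means were 276 ± 29.7 and 145 ± 6.56 CPM, and edgeR fitted a log2 fold change of 0.93 (SE 0.09, adjusted p = 1.5e-04). On the authors' FPKM scale, which divides by transcript length, the level was 167 ± 16.0 FPKM in KO-labelled and 89.6 ± 6.72 FPKM in parental libraries (SD, n = 3 each).

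SLC7A11, the light chain known as xCT that imports cystine in exchange for glutamate and so feeds glutathione synthesis, had 37.2, 36.4 and 40.0 CPM in KO-labelled 11, 12 and OG, against 12.6, 13.7 and 11.5 CPM in W1, W2 and W3. The 3 KO-labelled populations were close to each other and all well above the parental range. Its fitted log2 fold change was 1.59 (SE 0.10), with an edgeR adjusted p of 1.9e-05. On the authors' scale it was a low transcript, with 3.59, 3.27 and 3.88 FPKM in the KO-labelled libraries, against 1.30, 1.14 and 0.982 FPKM in the parental ones. An antisense gene on the opposite strand, SLC7A11-AS1, had at most 1 count in any library.

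SLC7A8, the light chain LAT2 that carries neutral amino acids of small and large size and is best known from kidney and intestine, changed most of the 10. It had 190, 155 and 148 counts in KO-labelled 11, 12 and OG, against 5, 2 and 1 counts in W1, W2 and W3. The gene was therefore near the detection limit in the parental cultures and present at a low level in every KO-labelled population. The scaled values were 5.97 ± 1.03 CPM against 0.0922 ± 0.0673 CPM (SD, n = 3 each). edgeR fitted a log2 fold change of 5.95 (SE 0.35, adjusted p = 1.3e-05). It passed the filter on low counts only through the KO-labelled group, and the size of the change rests on 8 parental counts. With a library left out the log2 fold change ranged from 5.50 (without W3) to 6.69 (without W1). Even at its higher level, 2.96, 2.14 and 2.11 FPKM in KO-labelled 11, 12 and OG against 0.0855, 0.0246 and 0.0103 FPKM in W1, W2 and W3, SLC7A8 stayed the lowest of the 10 transporters in every library.

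SLC7A5, the light chain LAT1 that brings in leucine and other large neutral amino acids, differed among the KO-labelled populations. Its level was 189.6 CPM in KO-labelled 11, 240.3 CPM in 12 and 388 CPM in OG, against 183, 189.7 and 202 CPM in W1, W2 and W3. KO-labelled 11 lay within the parental range and OG well above it. The log2 fold change was 0.51 (SE 0.23), with an edgeR adjusted p of 0.108, and the gene was not called. Without KO-labelled 11 it was 0.71 and called (adjusted p = 0.0233), and without OG it was 0.16 (adjusted p = 0.168). The pseudogene SLC7A5P1 held 1 to 5 counts per library, so few reads were assigned to that copy. A further copy, SLC7A5P2, was not in the count table. How reads shared with these copies were counted was not tested.

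**Figure D2:**
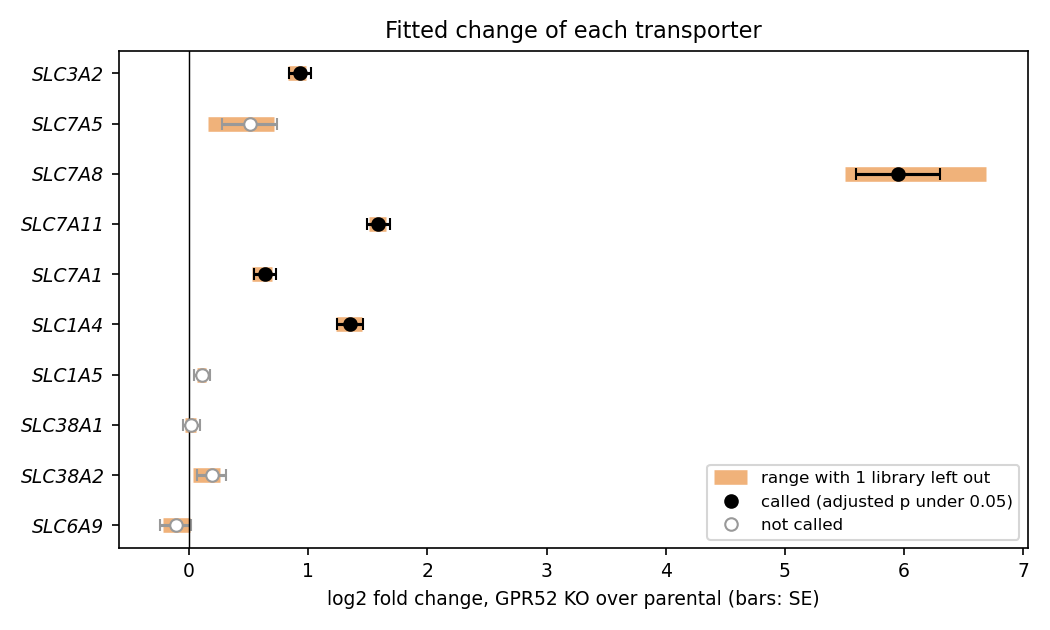
Fitted log2 fold change of each transporter, KO-labelled over parental, with its SE as bars; the orange band is the range when 1 of the 6 libraries is left out, and filled points are called. SLC7A8 at 5.95, SLC7A11 at 1.59 and SLC1A4 at 1.35 lead, and the band of SLC7A5 runs from 0.16 to 0.71.

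Heavy and light chains are needed together, so their levels per transcript length were set side by side. Among the light chains that pair with SLC3A2, SLC7A5, SLC7A6, SLC7A7, SLC7A8 and SLC7A11 were taken, and they summed to 66.6, 72.6 and 108 FPKM in KO-labelled 11, 12 and OG, against 60.2, 60.0 and 60.9 FPKM in W1, W2 and W3. A further light chain, SLC7A10, was not in the sum; it averaged 0.219 FPKM in KO-labelled and 0.0694 FPKM in parental libraries. All KO-labelled sums were above the parental ones, an exact permutation test giving p = 0.10, the smallest possible with 3 against 3 (two-sided). Divided by SLC3A2 the sum was 0.423, 0.392 and 0.684 in KO-labelled 11, 12 and OG, against 0.628, 0.728 and 0.672 in W1, W2 and W3. In 11 and 12 the ratio was below all parental values, and in OG it lay within their range. The means of the ratio, 0.50 ± 0.161 and 0.676 ± 0.0499, differed by -0.176, and by -0.269 without OG. The exact permutation test (two-sided, n = 3 each) gave p = 0.300, in a design whose smallest possible p is 0.10, so it could not pass the threshold and leaves the difference undecided. SLC7A5 and SLC7A6 made up most of the sum; SLC7A6, a light chain for cationic and neutral amino acids, had 18.4 FPKM in KO-labelled and 19.5 FPKM in parental libraries on average and was not called, with a log2 fold change of -0.04 (SE 0.12).

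**Figure D3:**
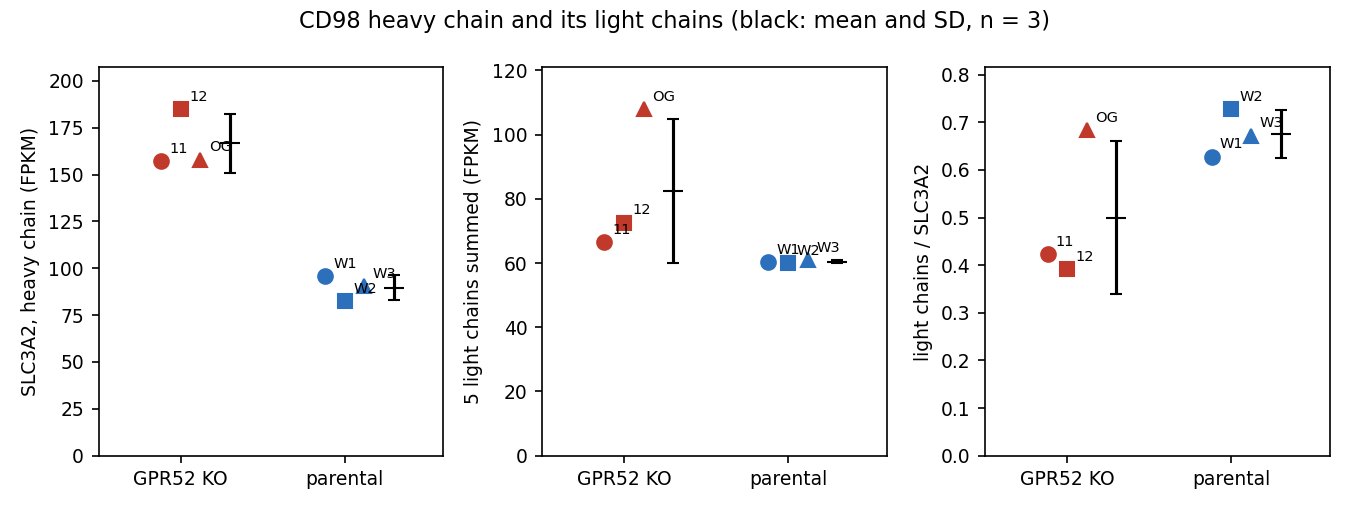
FPKM of the heavy chain SLC3A2, FPKM summed over its 5 light chains, and their ratio in each library, with KO-labelled libraries in red to the left of parental ones in blue; black marks are the mean and SD (n = 3). SLC3A2 separates the groups, the summed light chains are highest in OG at 108 FPKM, and the ratio in OG, 0.684, falls among the parental values.

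SLC7A1, the cationic amino acid transporter CAT1 and a main route for arginine and lysine, had 139, 133 and 166 CPM in KO-labelled 11, 12 and OG, against 95.1, 92.4 and 93.7 CPM in W1, W2 and W3. The parental cultures were almost level and all KO-labelled populations were higher, OG most of all. Its log2 fold change was 0.64 (SE 0.09), with an edgeR adjusted p of 0.00104.

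Of the pair of SLC1 exchangers, SLC1A4 was called and SLC1A5 was not; the difference between them was not tested. SLC1A4 (ASCT1), which carries alanine, serine, cysteine and threonine, had 99.7, 83.8 and 74.3 CPM in KO-labelled 11, 12 and OG, against 34.2, 33.7 and 33.0 CPM in W1, W2 and W3. Unlike SLC7A5 and SLC7A1, it was lowest in OG among the KO-labelled populations. Its log2 fold change was 1.35 (SE 0.11), with an edgeR adjusted p of 7.2e-05. The 137 tested genes within 10 Mb on either side on chromosome 2 had a median log2 fold change of 0.35, and relative to them SLC1A4 was at 1.0 and still called (adjusted p = 4.0e-04). For the other 9 transporters the neighbours' medians lay between -0.15 and 0.09.

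SLC1A5 (ASCT2), a main glutamine transporter of many cancer cells, had 373, 357 and 389 CPM in KO-labelled 11, 12 and OG, against 334, 337 and 368 CPM in W1, W2 and W3. The ranges overlapped and the log2 fold change of 0.11 (SE 0.07) was not called (edgeR adjusted p = 0.246).

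The sodium-coupled carriers of glutamine and alanine, SLC38A1 and SLC38A2, are neighbours on chromosome 12. SLC38A1 had 428, 408 and 377 CPM in KO-labelled 11, 12 and OG, against 405, 417 and 377 CPM in W1, W2 and W3, and its log2 fold change was 0.02 (SE 0.07, edgeR adjusted p = 0.875). SLC38A2, which is known to be induced when amino acids are scarce, had 269.7, 266 and 359 CPM in KO-labelled 11, 12 and OG, against 264, 265 and 256 CPM in W1, W2 and W3. In SLC38A2 the groups just failed to overlap, with 11 and 12 next to the parental values and OG apart. Its log2 fold change of 0.19 (SE 0.12) was not called (edgeR adjusted p = 0.226), and it was 0.03 without OG.

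SLC6A9 (GLYT1), a sodium- and chloride-driven glycine carrier, had 49.0, 60.9 and 68.3 CPM in KO-labelled 11, 12 and OG, against 59.0, 63.5 and 69.5 CPM in W1, W2 and W3. Only KO-labelled 11 was below the parental range, and the log2 fold change of -0.11 (SE 0.13) was not called (edgeR adjusted p = 0.528). CCDC24, which overlaps SLC6A9 on the opposite strand, averaged 14.6 CPM in KO-labelled and 10.9 CPM in parental libraries. Whether counting used strand is not stated.

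**Figure D4:**
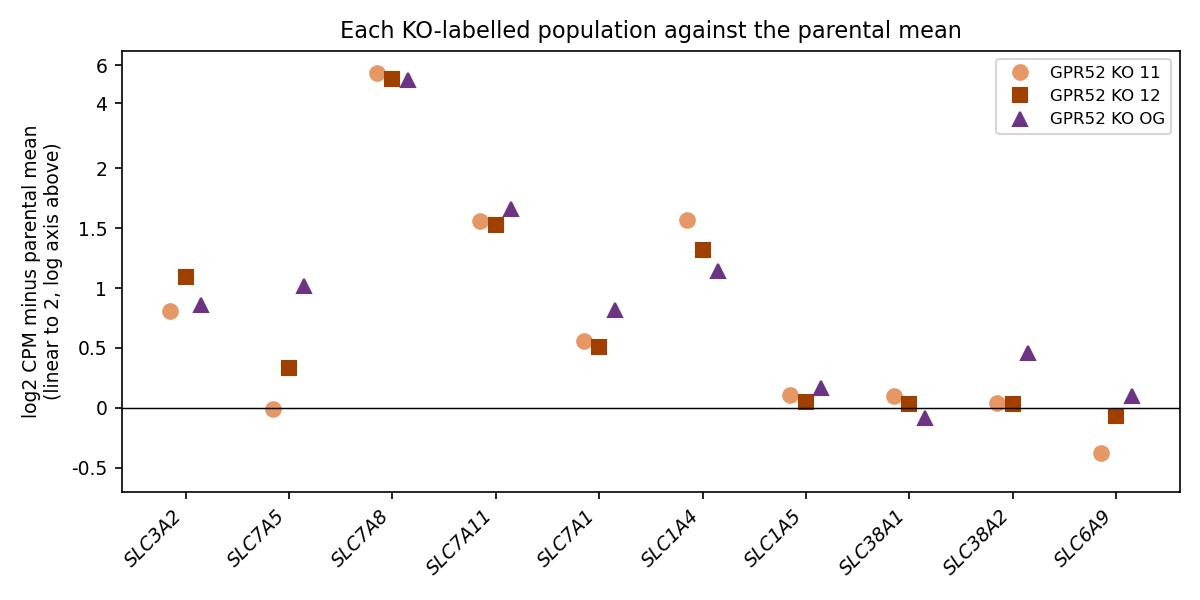
log2 CPM of each KO-labelled library minus the mean of the parental libraries, for each transporter, on an axis that is linear up to 2 and logarithmic above. The 5 called genes lie above 0 in all 3 populations, from 0.51 (SLC7A1 in 12) to 5.55 (SLC7A8 in 11), whereas SLC7A5 runs from -0.01 in 11 to 1.02 in OG.

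Set against the parental mean one population at a time, the 5 called genes were higher in each of 11, 12 and OG. For SLC7A11 the differences on the log2 scale were 1.56, 1.53 and 1.66 in 11, 12 and OG, and for SLC7A5 they were -0.01, 0.33 and 1.02. SLC7A11 thus stood at a like height in all 3 populations, and SLC7A5 did not. OG had the highest value of the 3 populations for 6 of the 10 genes (SLC7A5, SLC7A11, SLC7A1, SLC1A5, SLC38A2 and SLC6A9) and the lowest for 3 (SLC7A8, SLC1A4 and SLC38A1). The SD of log2 CPM was wider in the KO-labelled group for 7 of the 10, where 76.3% of all tested genes were wider there.

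Ordered by level per transcript length, the parental cultures gave SLC1A5 at 130.2 ± 7.50 FPKM, then SLC3A2, SLC38A2, SLC38A1, SLC7A5, SLC6A9, SLC7A1, SLC1A4, SLC7A11 and SLC7A8 at 0.0401 ± 0.0399 FPKM (SD, n = 3). None of the 9 neighbouring pairs in that order overlapped. In KO-labelled libraries SLC3A2 came first at 167 ± 16.0 FPKM, followed by SLC1A5 at 142 ± 5.90 FPKM, and this change of place was seen in every library of each group. Below them 4 of the 9 neighbouring pairs overlapped: SLC38A2 with SLC7A5, SLC7A5 with SLC38A1, SLC6A9 with SLC1A4, and SLC1A4 with SLC7A1. Of the FPKM summed over the 10 genes, SLC3A2 took 29.6%, 32.5% and 25.4% in KO-labelled 11, 12 and OG, against 22.3%, 20.1% and 21.2% in W1, W2 and W3. The sum itself was 532, 569.7 and 621 FPKM in KO-labelled 11, 12 and OG, against 428, 409 and 427 FPKM in W1, W2 and W3 (exact permutation test, two-sided, p = 0.10, the smallest possible).

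Other amino acid carriers of the plasma membrane and lysosome were taken as a list by family. Of 43 symbols, of which a pair names the same gene, 34 were in the count table and 22 passed the filter on low counts, of which 7 were called higher, 4 lower and 11 not called. That is 50% called, beside the 40.8% of all tested genes, and the count was 7 without W3. The median log2 fold change of the 22 was 0.34. Carriers outside the 10 were called in both directions.

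**Figure D5:**
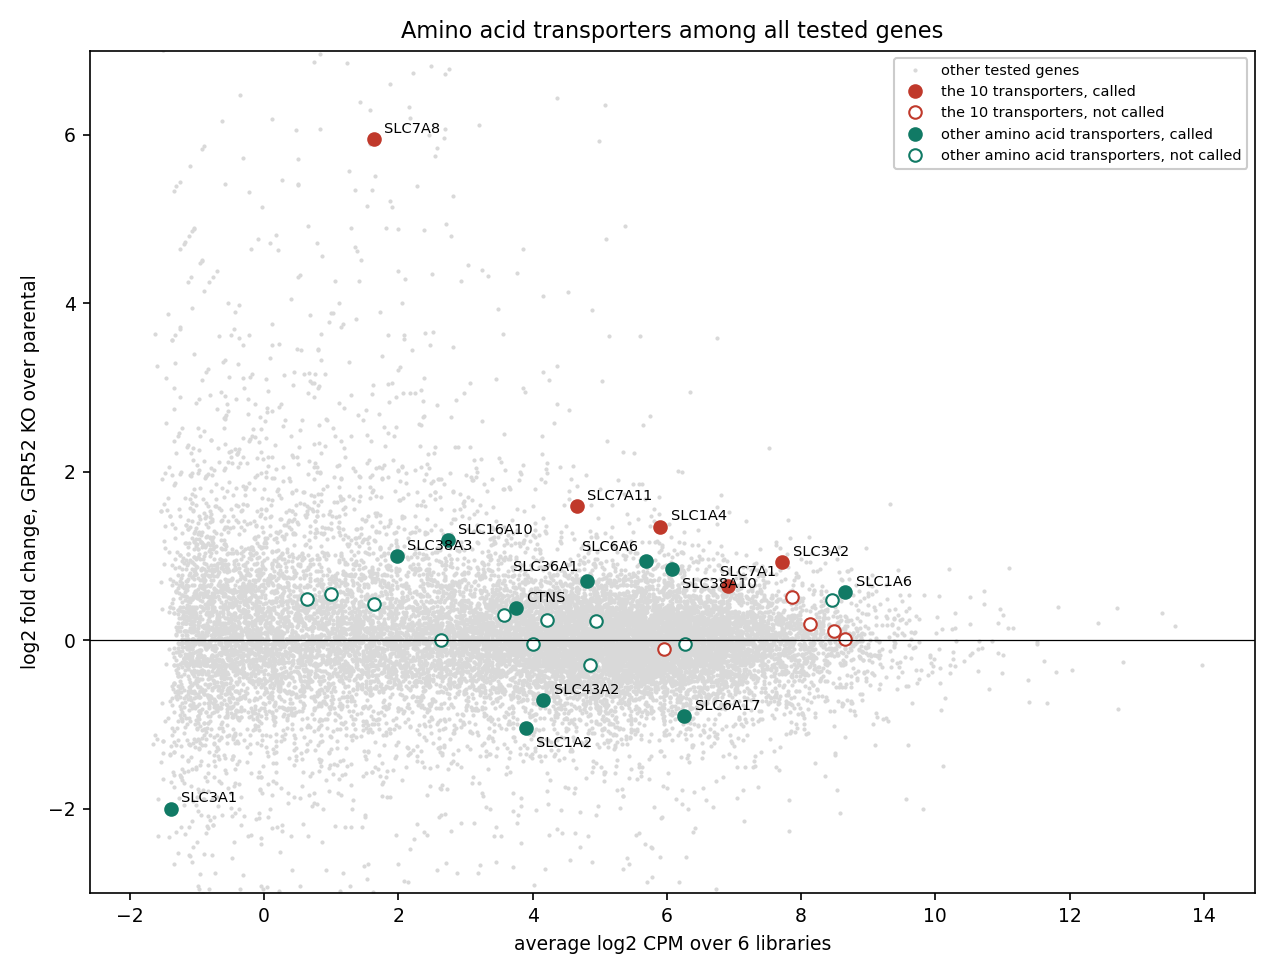
log2 fold change, KO-labelled over parental, against average log2 CPM for all tested genes (grey), the 10 transporters (red) and 22 other amino acid carriers (green), with filled points for called genes; 167 tested genes lie beyond the plotted range of -3 to 7. The called members are all above 0, and the called other carriers lie on both sides, from SLC3A1 at -2.0 to SLC16A10 at 1.19.

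Among those called higher, SLC16A10 (TAT1), a facilitated carrier of aromatic amino acids, had 10.7, 10.6 and 6.14 CPM in KO-labelled 11, 12 and OG, against 4.19, 4.05 and 3.79 CPM in W1, W2 and W3, and its fitted log2 fold change was 1.19 (SE 0.22). The taurine transporter SLC6A6 had 63.8, 55.4 and 84.2 CPM in KO-labelled 11, 12 and OG, against 36.3, 34.9 and 34.8 CPM in W1, W2 and W3, with a log2 fold change of 0.94 (SE 0.14). SLC36A1, a proton-coupled carrier of the lysosome and plasma membrane, had a log2 fold change of 0.70 (SE 0.13). These 3 and SLC38A3, a glutamine carrier at a low level with a log2 fold change of 1.0 (SE 0.19), had edgeR adjusted p-values of 0.00150 to 0.00439 and were called with any 1 library left out.

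The remaining carriers called higher carry a limit each. SLC38A10 rose by 0.84 (SE 0.12, edgeR adjusted p = 0.00107), but its neighbours on chromosome 17 had a median log2 fold change of 0.69, and relative to them it was at 0.15 and not called (adjusted p = 0.361). SLC1A6, a glutamate transporter best known from cerebellar neurons, was among the more abundant carriers here with 409.7, 407 and 633 CPM in KO-labelled 11, 12 and OG against 321, 324 and 334 CPM in W1, W2 and W3. Its log2 fold change of 0.57 (SE 0.16, edgeR adjusted p = 0.0246) was 0.32 without OG, and the call was lost without W1, W2 or W3 (adjusted p from 0.0766 to 0.0816) and relative to its neighbours (0.0712). The lysosomal cystine exporter CTNS was at 0.38 (SE 0.10, edgeR adjusted p = 0.0187), a call lost without W1, W2, W3 or KO-labelled 12 (adjusted p from 0.0528 to 0.0950) and relative to its neighbours (0.0580).

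Of the carriers called lower, SLC6A17 had the smallest adjusted p. SLC6A17, a carrier of neutral amino acids known from synaptic vesicles, had 56.0, 46.2 and 58.7 CPM in KO-labelled 11, 12 and OG, against 99.1, 103 and 97.7 CPM in W1, W2 and W3. Its log2 fold change was -0.90 (SE 0.10, edgeR adjusted p = 2.6e-04). SLC43A2 (LAT4), which carries branched-chain amino acids without SLC3A2, was at -0.71 (SE 0.11, edgeR adjusted p = 0.00187). The glutamate transporter SLC1A2 had 11.9, 12.5 and 4.71 CPM in KO-labelled 11, 12 and OG, against 19.8, 20.6 and 19.6 CPM in W1, W2 and W3, a log2 fold change of -1.04 (SE 0.30, edgeR adjusted p = 0.0236) that lost its call without W1, W2 or W3 (adjusted p from 0.0647 to 0.0671). SLC3A1, the heavy chain that pairs with SLC7A9 in kidney, was called lower with 0, 2 and 8 counts in KO-labelled 11, 12 and OG, against 19, 11 and 13 counts in W1, W2 and W3, with a log2 fold change of -2.0 (SE 0.63, edgeR adjusted p = 0.0360). DESeq2 did not call SLC3A1 (adjusted p = 0.0558), and with a library left out it was called only without OG. Its log2 fold change was -1.46 without KO-labelled 11 and -3.62 without OG. SLC3A1 passed the filter on low counts only through the parental group, where it is higher.

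The 4 regulators known to act on these genes were read beside them: ATF4, its stress-induced partner DDIT3, the oxidative stress factor NFE2L2 and MYC. edgeR called 0 of the 4, although DDIT3 and NFE2L2 had unadjusted p-values under 0.05 and were called by DESeq2. ATF4, which drives SLC7A11, SLC3A2 and other members when amino acids are short, was at 0.17 (SE 0.09, edgeR adjusted p = 0.188). DDIT3 had 7.88, 8.77 and 13.1 CPM in KO-labelled 11, 12 and OG, against 7.46, 6.16 and 6.62 CPM in W1, W2 and W3, and was at 0.55 (SE 0.20, edgeR adjusted p = 0.0578). NFE2L2, which also acts on SLC7A11, had 137, 141 and 220.4 CPM in KO-labelled 11, 12 and OG, against 228, 231 and 224 CPM in W1, W2 and W3. It was at -0.46 (SE 0.17, edgeR adjusted p = 0.0642), where its tested neighbours had a median of -0.42, and relative to them it was at -0.04 (adjusted p = 0.892). Without OG, NFE2L2 was at -0.72 and called lower (adjusted p = 5.0e-06), and without KO-labelled 11 DDIT3 was at 0.69 and called higher (adjusted p = 0.0303). DDIT3 was at 0.30 without OG (adjusted p = 0.0697) and at 0.42 relative to its neighbours (adjusted p = 0.140). MYC was at 0.11 (SE 0.18, edgeR adjusted p = 0.662), and without OG it was at -0.15 (adjusted p = 0.187). ATF4 was at 0.06 without OG (adjusted p = 0.399) and at 0.23 without KO-labelled 11 (adjusted p = 0.0763). Relative to its neighbours ATF4 was at 0.25 (adjusted p = 0.0734). These are transcript levels, and no protein or activity was measured.

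For the members at both ends of the range, the tested genes with the most similar profile were sought by the root mean square difference of centred log2 CPM over the 6 libraries. For SLC7A8 these were LINC00607 at 0.21, the R-spondin receptor LGR6 at 0.23 and the methionine sulfoxide reductase MSRA at 0.33. For SLC6A9 they were TOMM40 at 0.03, a mitochondrial import channel subunit, the ribosomal protein pseudogene RPL5P9 at 0.04 and the actin gene ACTG1 at 0.04. The 6 libraries fall into 2 groups, and a shared group difference alone gives a like profile.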

How the data were processed

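Polyadenylated RNA of 6 cultures was made into libraries with a directional kit, per the labels' protocols. The authors deposited raw counts per gene symbol and, in a second table, FPKM values, 1 column per sample. Per the submitters' processing notes, the genome build was hg19 and the tools included Cufflinks 2.0.2, SAMtools 0.1.19 and STAR 2.4.0f1. For the annotation, counting program and strand setting, nothing is stated in the labels or headers.

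Samples were grouped by the genotype label. Counts were tested with edgeR 4.0.16 in R 4.3.3 (filterByExpr with minimum count 10 and minimum total 15, TMM, quasi-likelihood F test, no covariate), with Benjamini-Hochberg adjustment over 17420 genes and a threshold of 0.05. Tested genes held 99.9% of counts. CPM values use TMM-scaled library sizes. The SE of each log2 fold change was taken as its absolute value over the root of F. The edgeR step was tested on simulated counts with the same dispersion in both groups. That simulation covered neither a wider spread in KO-labelled libraries nor a change as large as that of SLC7A8. Neighbours are tested genes within a window of 20 Mb centred on the gene, ordered by GENCODE on GRCh38, a later build than the authors'; promoter windows come from RefSeq, GRCh38.p14.

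The 10 members, the other lists, the motifs and the tests were chosen with earlier results of these data known. Named genes are the members, GPR52, the called other carriers with an average log2 CPM of at least 2 (up to 6 each way), 4 regulators and the profile neighbours. SLC38A3 and SLC3A1 (called, but under that level) and SLC7A6 were named after their values were seen. Alternatives were other normalisations and filters, DESeq2 1.42.0, limma 3.58.1 (voom, and log2(FPKM + 1) or log2(FPKM + 0.1) with at least 1 FPKM in 3 samples), a legacy robust fit, thinned counts, a neighbourhood offset and leaving out each library.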

Additional observations from a re-analysis of the deposited data

How the results depend on the processing

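The same number of members, 5 higher and none lower, was called under each of the other normalisations, without a count filter, with DESeq2, limma voom, the legacy robust fit, limma on FPKM, thinned counts and the neighbourhood offset. With a minimum of 10 CPM in 3 samples SLC7A8 was not tested and 4 of 9 were called. With a library left out the number was 5 to 6, the median log2 fold change 0.35 to 0.69, and the light chain ratio difference -0.269 to -0.122; over SLC7A5, SLC7A8 and SLC7A11 alone that difference was -0.0701. SLC38A1 changed sign without a count filter (-0.0012) and relative to its neighbours (-0.08), and ran from -0.03 to 0.06 with a library left out; SLC6A9 ran from -0.22 to 0.01. For neither gene was a call made at any of these settings, and the cause was not tested. Over all genes 7105 were called, 4507 when every gene with any FPKM above 0 entered the fit on log2(FPKM + 1), where more genes were tested, and 4879 to 9367 with a library left out. The count of other carriers was 5 in that FPKM fit and 7 to 13 with a library left out, the lowest without W3. On the log2(FPKM + 1) scale the change of SLC7A8 was 1.70, since the pseudocount compresses low values. No paired analysis was possible because the parental samples are wells of 1 plate and the KO-labelled populations carry no matching numbers. Depth limits SLC7A8 and SLC3A1, whose lower group held few counts.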
